A study of Mus musculus with 6 samples.

Results

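Mdm2, Plk3 and Pmaip1 are 3 reported target genes of p53, the transcription factor that DNA damage stabilises. They were followed in primary CD8+ T cells from the spleens of wild-type mice. The cells were exposed in culture to daunorubicin (DNR) or to its solvent dimethyl sulfoxide (DMSO). Daunorubicin is a chemotherapy drug of the anthracycline class, which slips between the bases of DNA and traps topoisomerase II on it. The members are the rows of the deposited table whose RefSeq accession belongs to 1 of these genes, and 3 of the 1037 listed transcripts met this rule, 1 for each gene.

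The RNA-seq experiment had 6 samples, 3 exposed to DNR for 2 h and 3 exposed to DMSO for 2 h, all of wild-type genotype and cultured in RPMI medium with serum. Its title is about how the drug affects the activation of T cells. The dose, the strain, sex and age of the mice and any stimulation of the cells were not stated in the labels. The labels call the samples biological replicates without saying that they came from separate mice, so the p-values set the groups against a spread that may be technical. Which columns are DNR was read from the column codes alone, and every direction rests on that reading.

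p53 is kept scarce in unstressed cells by the ubiquitin ligase that Mdm2 encodes, and p53 in turn activates Mdm2, which closes a negative feedback loop. Plk3 encodes a polo-like kinase that responds to stress and, in human cells, phosphorylates p53. Pmaip1 encodes Noxa, a BH3-only protein that binds the survival factor Mcl-1 and promotes apoptosis. T cells of mice are known to need Mcl-1 for their survival.

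The promoter windows of Mdm2 and Plk3 are shown because the genes share a named regulator and the windows can be searched for its motif. That of Pmaip1 was not analysed here. Each runs from 250 bases before the annotated start to 50 bases after it, 5′ to 3′ on the strand of the gene, from RefSeq on GRCm38.p6. The Mdm2 window is chr10:117710709-117711008 and the Plk3 window is chr4:117133914-117134213, both on the minus strand. Capitals mark matches to 1 of the 8 motifs searched on both strands.
Mdm2: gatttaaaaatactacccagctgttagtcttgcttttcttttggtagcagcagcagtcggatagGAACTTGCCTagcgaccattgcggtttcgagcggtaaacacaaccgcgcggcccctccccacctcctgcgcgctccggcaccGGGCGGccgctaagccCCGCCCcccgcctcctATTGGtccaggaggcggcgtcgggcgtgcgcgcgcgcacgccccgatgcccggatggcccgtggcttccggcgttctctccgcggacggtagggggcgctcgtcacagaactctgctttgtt
Plk3: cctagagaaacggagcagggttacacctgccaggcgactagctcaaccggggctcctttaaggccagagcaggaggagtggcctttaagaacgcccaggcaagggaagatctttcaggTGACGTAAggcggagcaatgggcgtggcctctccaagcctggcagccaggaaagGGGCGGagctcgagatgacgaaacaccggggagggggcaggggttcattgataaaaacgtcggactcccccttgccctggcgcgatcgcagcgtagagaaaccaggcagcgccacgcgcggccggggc

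In the Mdm2 window, the first block of capitals is a match to the 10-letter p53 half-site consensus, which lies 186 bases upstream of the start. The others are the GC-box letters GGGCGG, once on each strand at 104 and 88 bases upstream, and CCAAT on the opposite strand at 72 bases upstream. In the Plk3 window, TGACGTAA, a variant of the site of the CREB and ATF factors, lies 132 bases upstream, and GGGCGG lies 78 bases upstream. No match overlapped another. A p53 half-site match occurred in 9.41% of the 170 windows of genes called higher in DNR, in 6.23% of the 369 windows of all tested genes and in 8.36% of all 32851 windows. TGACGTAA occurred in 2.94% of the 170, 2.44% of the 369 and 0.499% of all windows. GGGCGG occurred in 69.4%, 68.0% and 35.7% of these, and CCAAT in 38.2%, 34.4% and 37.4%. TATAAA, the TATA box, had 0 matches in both windows and occurred in 7.32% of the 369 and 13.6% of all windows. The cyclic AMP response element TGACGTCA, in 1.90% of the 369 and 1.79% of all windows, was likewise unmatched. The AP-1 site TGANTCA, in 3.52% of the 369 and 7.81% of all windows, had 0 matches. The E-box CACGTG, in 11.7% of the 369 and 7.15% of all, had 0 as well. The p53 half-site is found in many sequences that p53 does not bind, and the p53-responsive promoter of Mdm2 is known to lie in the first intron, outside the window shown.

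All 3 transcripts were called higher in DNR, as were 43.0% of all transcripts tested. Levels are FPKM, which count fragments per kilobase of a transcript after scaling for depth, and changes are the DNR mean minus the DMSO mean of the deposited log2(FPKM + 1) values, a scale that understates the change of low transcripts. Mdm2 was 36.9% higher in DNR than in DMSO by mean FPKM, Plk3 25.8% higher and Pmaip1 15.1% higher. The order of the levels was the reverse, with Pmaip1 above Plk3 and Plk3 above Mdm2 in all 6 samples.

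Mdm2, through the transcript NM_010786, was at 19.7, 18.4 and 16.1 FPKM in DNR replicates 1 to 3 and at 14.5, 11.8 and 13.3 FPKM in DMSO replicates 1 to 3. The groups did not overlap, but the lowest DNR sample stood only 1.57 FPKM above the highest DMSO sample, less than the range within either group. The means were 18.0 ± 1.82 FPKM in DNR and 13.2 ± 1.37 FPKM in DMSO (SD, n = 3 each). The change was 0.43 ± 0.10 on the log2 scale (SE; 95% interval 0.18 to 0.67; limma, adjusted p = 0.0061). The gene lies on chromosome 10 from 117688875 to 117710758 (GRCm38.p6) and spans 21.9 kb.

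Plk3, through the transcript NM_013807, was at 36.9, 40.4 and 39.9 FPKM in DNR and at 31.9, 32.0 and 29.2 FPKM in DMSO. Every DNR sample was above every DMSO sample, with a gap of 4.91 FPKM that exceeded the range within each group. The means were 39.0 ± 1.89 FPKM in DNR and 31.0 ± 1.56 FPKM in DMSO (SD, n = 3 each). The change was 0.32 ± 0.06 on the log2 scale (SE; 95% interval 0.19 to 0.45; limma, adjusted p = 0.0026). The gene lies on chromosome 4 from 117128655 to 117133963 and spans 5.31 kb.

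Pmaip1, through the transcript NM_021451, was at 61.0, 63.0 and 61.9 FPKM in DNR and at 53.8, 53.9 and 53.9 FPKM in DMSO. The groups were 7.15 FPKM apart, against a range of 1.94 FPKM within DNR and 0.10 FPKM within DMSO. The means were 62.0 ± 0.97 FPKM in DNR and 53.9 ± 0.058 FPKM in DMSO (SD, n = 3 each). The change, the smallest of the 3 on the log2 scale, was 0.20 ± 0.03 (SE; 95% interval 0.13 to 0.27; limma, adjusted p = 0.0017). The gene lies on chromosome 18 from 66458604 to 66465558 and spans 6.96 kb.

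**Figure D1:**
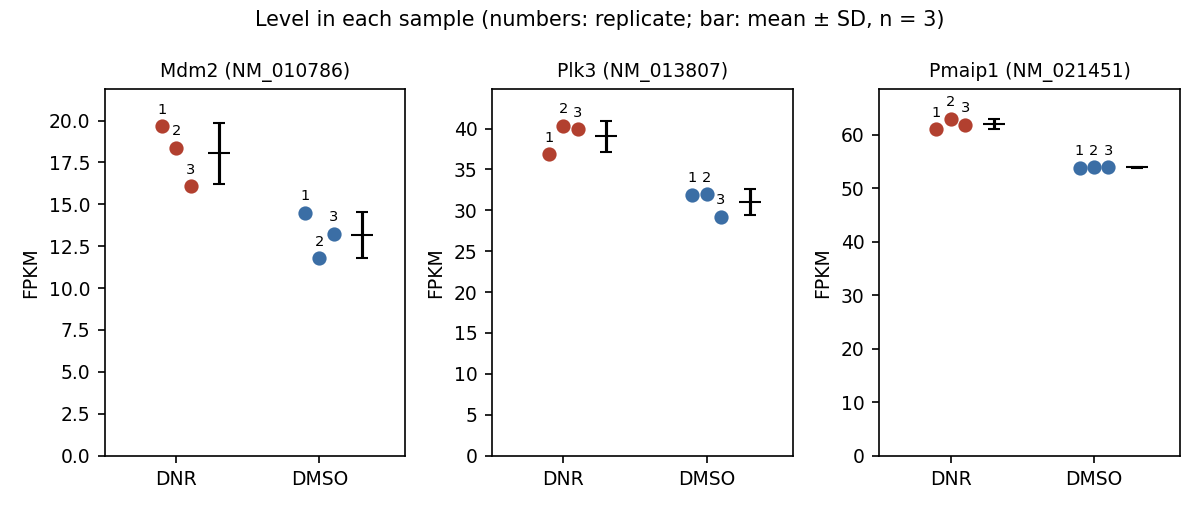
FPKM of Mdm2, Plk3 and Pmaip1 in each sample, DNR in red on the left and DMSO in blue on the right, with the replicate number above each point and the mean ± SD beside each group (n = 3). The groups do not overlap for any of the 3 transcripts, nor for 99.7% of the 388 tested (43.0% higher, 56.7% lower in DNR). The gap between the groups is narrowest for Mdm2, where DNR replicate 3 stands at 16.1 FPKM and DMSO replicate 1 at 14.5 FPKM.

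These calls have to be read against a table in which nearly every transcript differs. Of the 388 transcripts tested, 99.7% passed the threshold of 0.05 on the adjusted p in either direction while 43.0% passed it as higher and 56.7% as lower in DNR. The groups were without overlap for the same shares. The table looks selected on the contrast that it is used for here, so 3 calls of 3 are no evidence of their own that the cells responded. An exact permutation test of each transcript alone gave p = 0.10 two-sided, the smallest that 3 against 3 samples allow. Among tested transcripts with curated accessions, the class of all 3 members, 50.2% were called higher in DNR, against 34.1% of those with predicted accessions. In bulk RNA, fewer cells of a type and less RNA per cell cannot be told apart.

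The size of each change was ordinary for its level. Of 83 tested transcripts averaging 10 to 25 FPKM over the 6 samples, where Mdm2 lies, 21 were called higher, and those with a positive change had a median of 0.48 on the log2 scale. Of 49 at 25 to 50 FPKM, the class of Plk3, 19 were called higher, with a median positive change of 0.32. Of 41 at 50 to 100 FPKM, the class of Pmaip1, 26 were called higher, with a median positive change of 0.23. The members' changes of 0.43, 0.32 and 0.20 therefore stood close to the median of the positive changes at their levels, slightly below it for Mdm2 and Pmaip1. Among the 167 transcripts called higher, their changes ranked 97th for Mdm2, 117th for Plk3 and 148th for Pmaip1.

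**Figure D2:**
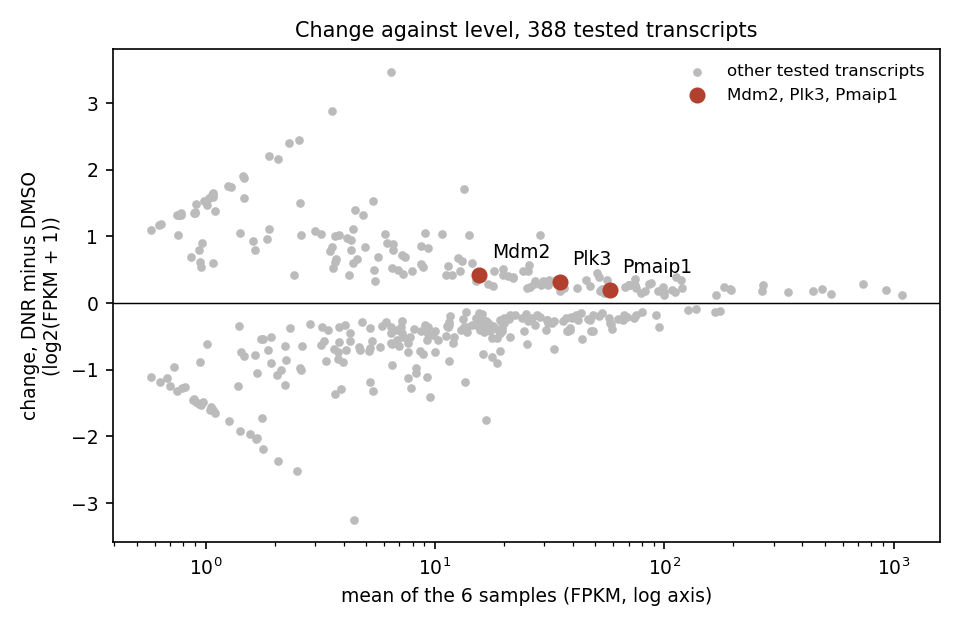
Change, DNR minus DMSO, on the log2(FPKM + 1) scale against the mean FPKM of the 6 samples (log axis) for the 388 tested transcripts, with Mdm2, Plk3 and Pmaip1 in red. The 3 members lie within the band of positive changes, which narrows as the level rises, and few tested transcripts lie near 0.

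Replicate spread differed between the members, widest for Mdm2 and narrowest for Pmaip1. The coefficient of variation of Mdm2 was 10.1% in DNR and 10.4% in DMSO. Among 195 tested transcripts averaging at least 10 FPKM, 159 varied less than Mdm2 in DNR and 169 in DMSO. Plk3, at 4.83% and 5.04%, was near the medians of 5.33% in DNR and 4.44% in DMSO. Pmaip1 varied by 1.57% in DNR, where 14 of the 195 varied less, and by 0.107% in DMSO, where 0 did. The DNR samples did not rank the members alike. Replicate 1 was the highest for Mdm2 and the lowest for Plk3 and Pmaip1, and replicate 2 was the highest for Plk3 and Pmaip1.

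Ratios within a sample compare the members without a scaling factor between samples. The ratio of Pmaip1 to Plk3 FPKM was 1.66, 1.56 and 1.55 in DNR and 1.68, 1.69 and 1.84 in DMSO, so that it was lower in every DNR sample. The ratio of Pmaip1 to Mdm2 was 3.10, 3.43 and 3.85 in DNR and 3.71, 4.58 and 4.07 in DMSO, and the ratio of Plk3 to Mdm2 was 1.87, 2.20 and 2.48 in DNR and 2.20, 2.72 and 2.21 in DMSO. Both overlapped between the groups. The differences between the members' changes were not tested.

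The members differ in how far a value of 1 transcript stands for its gene. The RefSeq table holds 4 transcripts of Mdm2, 2 of Plk3 and 1 of Pmaip1, and the deposited table lists 1 of each gene. A shift of reads between transcripts was not tested for Mdm2 and Plk3. Pmaip1 has no second RefSeq transcript here to share its reads.

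The mRNAs also differ in build, by the GENCODE M21 transcripts matched to these accessions. That of Mdm2 has 12 exons and 3099 bases, that of Plk3 15 exons and 2378 bases, and that of Pmaip1 3 exons and 2727 bases, of which 2187 are 3′ untranslated. ATTTA, the core of AU-rich elements that are known to shorten mRNA half-life, occurs 8 times in the 3′ untranslated region of Mdm2, 4 times in that of Plk3 and 4 times in that of Pmaip1. Per kilobase this is 5.99 for Mdm2, 12.0 for Plk3 and 1.83 for Pmaip1. The median over the 191 tested coding transcripts with a match was 1.71 per kilobase. It was 1.67 for those called higher in DNR and 1.77 for those called lower.

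Direction in the table moved with gene span. Of 49 tested transcripts of genes under 10 kb, a class that holds Plk3 and Pmaip1, 43 were called higher and 6 lower in DNR. Of 83 at 10 to 25 kb, the class of Mdm2, 52 were higher and 31 lower, and of 79 at 100 kb or more, 13 were higher and 65 lower. With the level held to 10 to 100 FPKM, 23 of 27 transcripts of genes under 10 kb and 21 of 32 at 10 to 25 kb were higher, against 4 of 37 at 100 kb or more. Within the 43 short transcripts called higher, which ranged from 0.12 to 2.16 with a median of 0.27, Plk3 ranked 15th and Pmaip1 30th. Within the 52 of the 10 to 25 kb class, Mdm2 ranked 35th, below the median of 0.65. Some genes contribute several transcripts to these counts, which are a description. The part of gene span in the rise of the members was not tested.

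**Figure D3:**
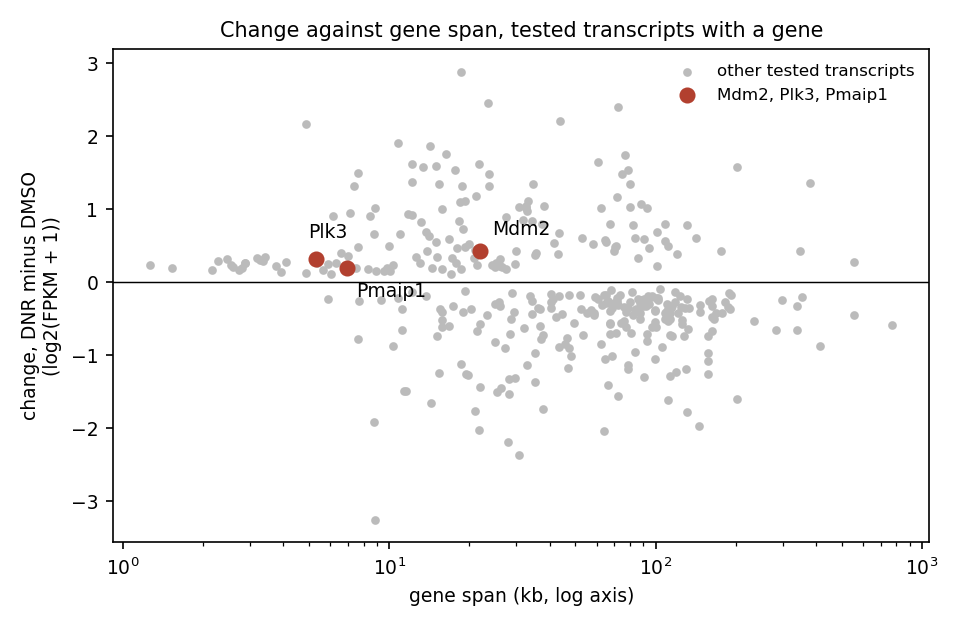
Change, DNR minus DMSO, on the log2(FPKM + 1) scale against the span of the gene in kb (log axis) for tested transcripts with a matched gene, with the 3 members in red. Below 10 kb, where Plk3 and Pmaip1 lie, 43 of 49 transcripts were called higher in DNR, and above 100 kb 13 of 79 were.

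The other reported p53 target genes that could be tested also rose. Of a list of 93 such genes, most of them known from human cells, 8 were listed in the table and 4 passed the filter on low values, and all 4 were called higher, as were 43.0% of all tested transcripts. Their median change was 0.28, against -0.22 over all tested transcripts. Hexim1, Ier5 and Ptp4a1 span under 10 kb, a class in which 43 of 49 transcripts were called higher and the median change was 0.26. All 4 were above 1 FPKM in all 6 samples, so that they did not pass the filter through DNR alone. The rest of the list, Cdkn1a, Bax and Bbc3 included, was not matched in the table, so it gives no view of the p53 response as a whole. Some of the 4 are also induced by stress signals without p53. The list was chosen with earlier results of these data known, so these 4 calls are no evidence of their own.

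Hexim1, whose product holds the elongation kinase P-TEFb inactive, was at 35.5, 36.1 and 34.4 FPKM in DNR and at 27.5, 27.6 and 27.3 FPKM in DMSO, a change of 0.35 ± 0.04 (SE; limma, adjusted p = 0.00041). Ier5, an immediate-early gene, was at 90.2, 102.1 and 97.0 FPKM in DNR and at 79.7, 78.6 and 75.7 FPKM in DMSO. Atf3, a stress-induced transcription factor gene, was at 77.2, 81.7 and 85.1 FPKM in DNR and at 65.7, 72.3 and 64.6 FPKM in DMSO. For each of these genes every DNR sample was above every DMSO sample, as it was for 43.0% of all tested transcripts. Ptp4a1, which encodes a protein tyrosine phosphatase, had the smallest change of the 4, at 57.7 ± 1.31 FPKM in DNR and 51.6 ± 0.76 FPKM in DMSO (SD, n = 3 each; limma, adjusted p = 0.0046). The promoter windows of Atf3 and Plk3 both hold TGACGTAA letters, on the opposite strand in Atf3, and those of Ier5 and Mdm2 both hold 1 p53 half-site match. Those of Plk3, Hexim1, Atf3 and Ptp4a1 hold 0 matches to the p53 half-site, and those of Mdm2, Hexim1, Ier5 and Ptp4a1 hold 0 to TGACGTAA.

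The 4 listed targets below the filter were low. A predicted transcript of Trp53i11 was listed at 0 in every DNR sample and at 1.02, 1.10 and 0.73 FPKM in DMSO. Transcripts of Arhgef3 and Cdip1 were above 1 FPKM in 1 DNR sample each, and 1 of Bcl6 in 1 DMSO sample.

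Of 30 regulators of p53, 3 were listed and 1 was tested. Pias1, which encodes a SUMO ligase that can modify p53, was at 17.4 ± 0.38 FPKM in DNR and 20.9 ± 0.42 FPKM in DMSO (SD, n = 3 each), a change of -0.25 ± 0.05 (SE; limma, adjusted p = 0.0041). Pias1 spans 102.5 kb. Of 79 tested transcripts of genes of 100 kb or more, 65 were called lower, as were 56.7% of all tested. A predicted transcript of Atr, the gene of a DNA damage kinase, was listed at 0 in DNR and at 0.87, 1.06 and 0.68 FPKM in DMSO. Trp53bp1, through a predicted transcript, was at 0.99 FPKM in DNR replicate 3 and at 0 in the other samples. Trp53 itself and Mdm4, the gene of the partner of Mdm2, were not matched in the table.

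Of 27 genes of the Bcl-2 family and the apoptosis machinery, 3 were listed and 1 was tested. That was Birc3, the gene of the inhibitor of apoptosis protein cIAP2, at 17.6 ± 0.38 FPKM in DNR and 21.3 ± 0.23 FPKM in DMSO (SD, n = 3 each), a change of -0.27 ± 0.05 (SE; limma, adjusted p = 0.0031). Birc3 spans 25.7 kb. Of 67 tested transcripts of genes of 25 to 50 kb, 42 were called lower, as were 56.7% of all tested. The calls of Pias1 and Birc3 as lower both depended on scaling. Once the sample medians were aligned, limma gave an adjusted p of 0.43 for Pias1 and 0.28 for Birc3. After quantile normalization the limma adjusted p was 0.22 for Pias1 and 0.15 for Birc3. The whole table moved likewise. Of the 388 tested transcripts, 220 were called lower as deposited, 106 with the medians aligned and 171 after quantile normalization. Mcl1, whose product Noxa binds, was not matched in the table. A predicted transcript of Bcl2l11, the gene of the BH3-only protein Bim, was above 0 in 1 DMSO sample alone. Huwe1, also below the filter, had a predicted transcript at 1.68, 0.94 and 0.90 FPKM in DNR and at 0.54, 0.53 and 0.40 FPKM in DMSO. Its other listed transcript was above 0 in 1 DMSO sample alone. None of the 4 other polo-like kinases was listed.

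**Figure D4:**
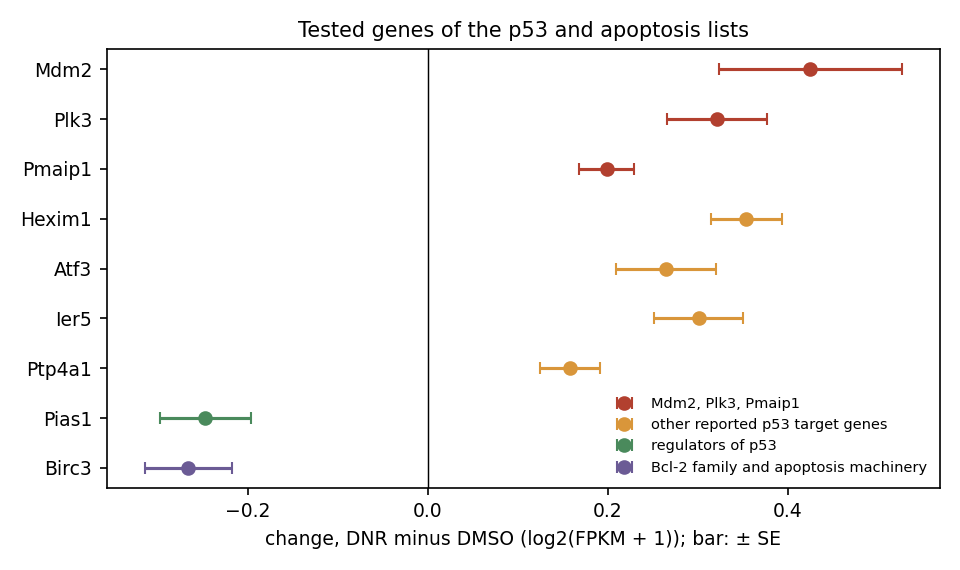
Change, DNR minus DMSO, on the log2(FPKM + 1) scale with its SE for the 3 members, the 4 other tested p53 target genes, and the 1 tested gene of each of the lists of p53 regulators and of apoptosis genes. The 7 target genes lie between 0.16 and 0.43, and Pias1 and Birc3 lie at -0.25 and -0.27. Of all tested transcripts, 43.0% were called higher and 56.7% lower in DNR.

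The transcripts most like each member were found by the root-mean-square distance over the 6 samples between log2 profiles taken relative to their own DMSO means. For Plk3 they were Nr4a2, an orphan nuclear receptor gene (0.029), Ier5 (0.031) and Ucp2, a mitochondrial carrier gene (0.039). For Pmaip1 they were a transcript of Psap, a gene of lysosomal saposins (0.019), Klf2, a gene of T cell quiescence (0.028), and Srsf6, a splicing factor gene (0.029). For Mdm2 they were a transcript of Ppp2r5d, a subunit gene of protein phosphatase 2A (0.088), 1 of Sh3kbp1, an adaptor gene (0.092), and 1 of the calcium channel gene Cacna1i (0.093). Another transcript of Psap, averaging 17.7 FPKM over the 6 samples, was called lower in DNR, with a change of -0.81. Another of Cacna1i, averaging 1.07 FPKM, was also called lower, with a change of -1.61. Nr4a2 was at 30.9, 34.8 and 33.2 FPKM in DNR and at 27.6, 26.1 and 24.4 FPKM in DMSO, lowest and highest in the same DNR samples as Plk3. So were Pmaip1 and the nearest transcripts of Ier5, Ucp2, Psap, Klf2, Srsf6 and Ppp2r5d, but not those of Sh3kbp1 and Cacna1i. The members were not each other's nearest. Among the 388 tested transcripts, 24 were nearer to Mdm2 than Plk3 was and 51 nearer than Pmaip1 was. To Plk3, 75 were nearer than Mdm2 and 43 nearer than Pmaip1. To Pmaip1, 71 were nearer than Mdm2 and 47 nearer than Plk3.

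Summed FPKM of the listed transcripts were 14023 to 14395 in DNR and 13501 to 13669 in DMSO, without overlap. Pairs of samples within a group had correlations of 0.989 to 0.993 over the tested transcripts, and pairs of a DNR and a DMSO sample had 0.897 to 0.907. FPKM keep no read totals, so the depth is unknown. The median of the tested transcripts was lower in DNR, with a difference of -0.18 on the log2 scale. Once the sample medians were aligned, the changes were 0.61 for Mdm2, 0.51 for Plk3 and 0.38 for Pmaip1. Of 11 T cell markers, Cd3e and Cd8a among them, 0 were listed, so the label could not be checked against them. Of 11 monocyte and macrophage markers 1 was listed, Csf1r, at 69.6 to 79.1 FPKM in DNR and 58.5 to 63.2 FPKM in DMSO, above Mdm2, Plk3 and Pmaip1 in every sample. Its change of 0.25 lies between those of Plk3 and Pmaip1, and its part in theirs was not tested. Of 9 B cell markers 2 were listed, Spib and Ebf1, with summed levels of 1.88 to 5.97 FPKM in DNR and 0 to 2.27 in DMSO. Of 6 dendritic cell markers 1 was listed, Itgax, with summed levels of 1.14 to 1.51 FPKM in DNR and 0.96 to 1.23 in DMSO. These sums join transcripts that differ, as a transcript of Itgax was at 0 in every DNR sample and another at 0 in every DMSO sample. The listed transcripts of Spib were split in the same way. Of 4 neutrophil markers Csf3r was listed, at 1.43 FPKM in 1 DMSO sample and at 0 in the others. Markers of natural killer cells, of CD4 T cells, of platelets and of erythroid cells had 0 listed.

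**Figure D5:**
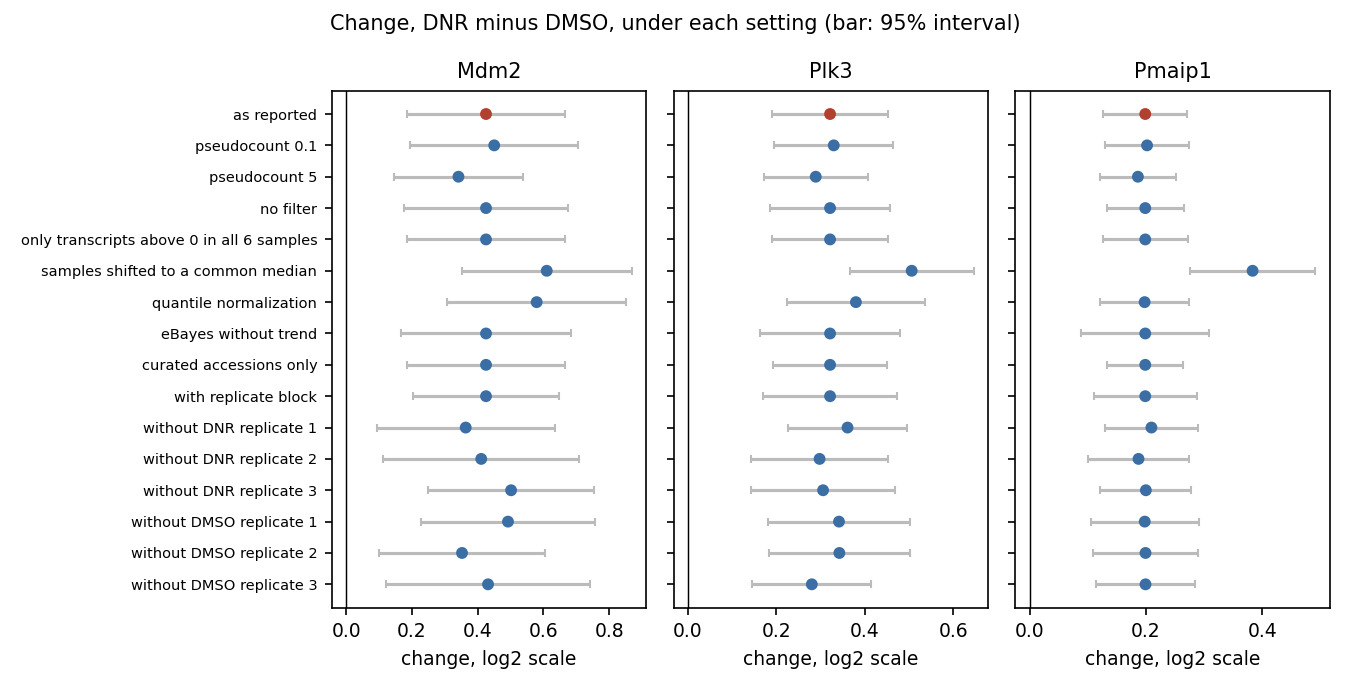
Change, DNR minus DMSO, of Mdm2, Plk3 and Pmaip1 as reported (red) and under 15 other settings (blue), with 95% intervals. The changes range from 0.34 to 0.61 for Mdm2, from 0.28 to 0.51 for Plk3 and from 0.19 to 0.38 for Pmaip1. No interval reaches 0, but the table looks selected on this contrast, so that is no evidence of its own. In the settings that tested the same 388 transcripts, 149 to 167 were called higher.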

How the data were processed

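The authors deposited log2(FPKM + 1) values, per the file headers FPKM and with the log2 scale read from the values, for 1037 transcripts in 6 samples. Back-transformed, 100% of the values were FPKM with 2 decimals. GRCm38 and mm10 are the builds in the submitters' processing notes. How reads were aligned and quantified, and how transcripts were picked for the table, is not given in the sources used here. Per the labels' protocols the library kit was a SMARTER mRNA kit. All 6 value columns were mapped to a sample. The code O matched the DMSO descriptions, and D was given to DNR because the DMSO descriptions already had columns. Accessions without version were matched to the RefSeq genes of GRCm38.p6, which named 1001 transcripts of 841 genes. In the list of other p53 targets, 92 of the 93 symbols were in that table.

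Transcripts that reached 1 FPKM in at least 3 samples, 388 in all, were compared with limma 3.58.1 in R 4.3.3 (treatment alone, mean-variance trend, two-sided, Benjamini-Hochberg adjustment over all 388, threshold 0.05). The 3 members were above 1 FPKM in all 6 samples. The test was tried on simulated data with normal spread, in which part of the transcripts were left unchanged. None were selected on the contrast there, so the trial does not bear on the selection of the table. Members, lists and motifs were chosen with earlier results of these data known. Named are the members, the listed genes of each list and the 3 nearest transcripts of each member.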

Additional observations from a re-analysis of the deposited data

How the results depend on the processing

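The direction and the call of Mdm2, Plk3 and Pmaip1 were the same under all 15 alternatives run (limma, highest adjusted p = 0.021, 0.011 and 0.0087). This is not particular to the members. As deposited, 167 of the 388 transcripts were called higher. In the other settings that tested the same 388, from 149 (quantile normalization) to 167 were. The samples sharing a replicate number did not deviate together (correlations of -0.055, 0.046 and 0.043), so the numbers were not read as pairs. With the replicate number as a block the changes were 0.43, 0.32 and 0.20 and 385 transcripts passed. Once the sample medians were aligned, 61.2% of calls were higher and 38.8% lower in DNR, against 43.2% and 56.8% as deposited. Restricting the fit to curated accessions left 215 transcripts, of which 215 passed, against 387 of 388, because fewer were tested. With 1 sample left out, the changes ranged from 0.35 to 0.50 for Mdm2, from 0.28 to 0.36 for Plk3 and from 0.19 to 0.21 for Pmaip1, and 376 to 383 transcripts passed. Among the other p53 targets, Ier5 changed by 0.17 with quantile normalization, against 0.30 as deposited, and still passed (limma). The scalings were estimated on a list that appears selected, so neither shows which is right.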
